A study of Homo sapiens with 6 samples.

Results

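The genes examined here encode the core proteins of small nucleolar ribonucleoproteins (snoRNPs) and a pair of factors that help build them. They were chosen by name: FBL, NOP56, NOP58 and NHP2L1 for the box C/D particles, DKC1, NHP2, NOP10 and GAR1 for the box H/ACA particles, and the assembly factors NOLC1 and NAF1. All 10 were found among the 26485 genes of the count table, 9 under these names and NHP2L1 under its current symbol SNU13. RNA-seq had been performed on THP1 cells, a human acute monocytic leukemia line, to see how short exposure to withaferin A (WFA), a plant steroidal lactone, changes gene expression. Cells received DMSO, the vehicle, or WFA for 6 h, with 3 libraries in each group from independent experiments. Every library came from this line, cultured in RPMI medium with serum, and the labels give no difference between the groups other than the agent, so the results describe 1 cell line at 1 time. The sample labels give the WFA concentration as 1 mM, whereas the methods of the study give 1 μM.

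Small nucleolar RNAs (snoRNAs) guide the modification of ribosomal RNA by base pairing with it. Box C/D snoRNAs carry the methyltransferase fibrillarin together with NOP56, NOP58 and SNU13 and direct 2′-O-methylation, and box H/ACA snoRNAs carry the pseudouridine synthase dyskerin with NHP2, NOP10 and GAR1 and direct pseudouridylation. Some of these particles, U3 among them, act in cleaving the ribosomal RNA precursor, and the box H/ACA proteins also bind telomerase RNA. Most human snoRNAs are cut from introns of other genes, including genes of snoRNP proteins themselves.

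Total counts lay between 11006035 and 13872810 per library. Of 10 monocytic and myeloid marker genes, 8 exceeded 10 CPM (counts per 1000000 counts of the library) in all 6 libraries, and ELANE had no count. Their summed level, 2399 to 2928 CPM with DMSO and 2178 to 2952 CPM with WFA, was mostly LYZ. Of the 9 tested, 3 were lower (CD33, CSF1R and SPI1, with log2 fold changes of -0.85, -0.40 and -0.34) and 2 higher (CEBPB and CD68, with 0.43 and 0.37). The summed level of 8 markers of other cell types was 0.985 to 2.17 CPM with DMSO and 10.7 to 13.9 CPM with WFA. This difference came mainly from the collagen gene COL1A1, at 0.453 ± 0.333 CPM with DMSO and 9.95 ± 2.27 CPM with WFA (SD, n = 3 each), and HBB had no count in either group. Its part in the results on the snoRNP genes was not tested. In bulk RNA, fewer cells expressing a gene and less RNA per cell cannot be told apart.

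Most of the snoRNP genes fell, to different degrees. With WFA 7 of the 10 were lower, 0 were higher and 3 did not pass an adjusted p-value of 0.05 in edgeR's quasi-likelihood test, which was fitted on all 12854 genes with enough counts. None was higher at an unadjusted p under 0.05 or with DESeq2. Among all genes tested, 24.7% were lower and 25.8% were higher. NOP56, DKC1 and NOLC1 fell by more than 2-fold, 3 of 10, against 5.2% of all genes tested. The median log2 fold change of the 10 was -0.61, beside 0.02 for all genes tested, and the same-numbered pairs 1, 2 and 3 gave -0.61, -0.53 and -0.78. Together the 10 genes had 1236 ± 22.7 CPM with DMSO and 748 ± 38.4 CPM with WFA (SD, n = 3 each), so that 60.5% of their summed transcript level remained. All 10 passed the filter on low counts, and the lowest count of any of them in a library was 164.

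Same-numbered libraries deviated together, and with the replicate number as a block FBL and NHP2 also passed the test, so that 9 of the 10 were lower and 28.8% of all genes tested were. An exact permutation test of a single gene cannot go below p = 0.1 with 3 libraries against 3, and it gave 0.1 for each gene whose groups did not overlap.

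**Figure D1:**
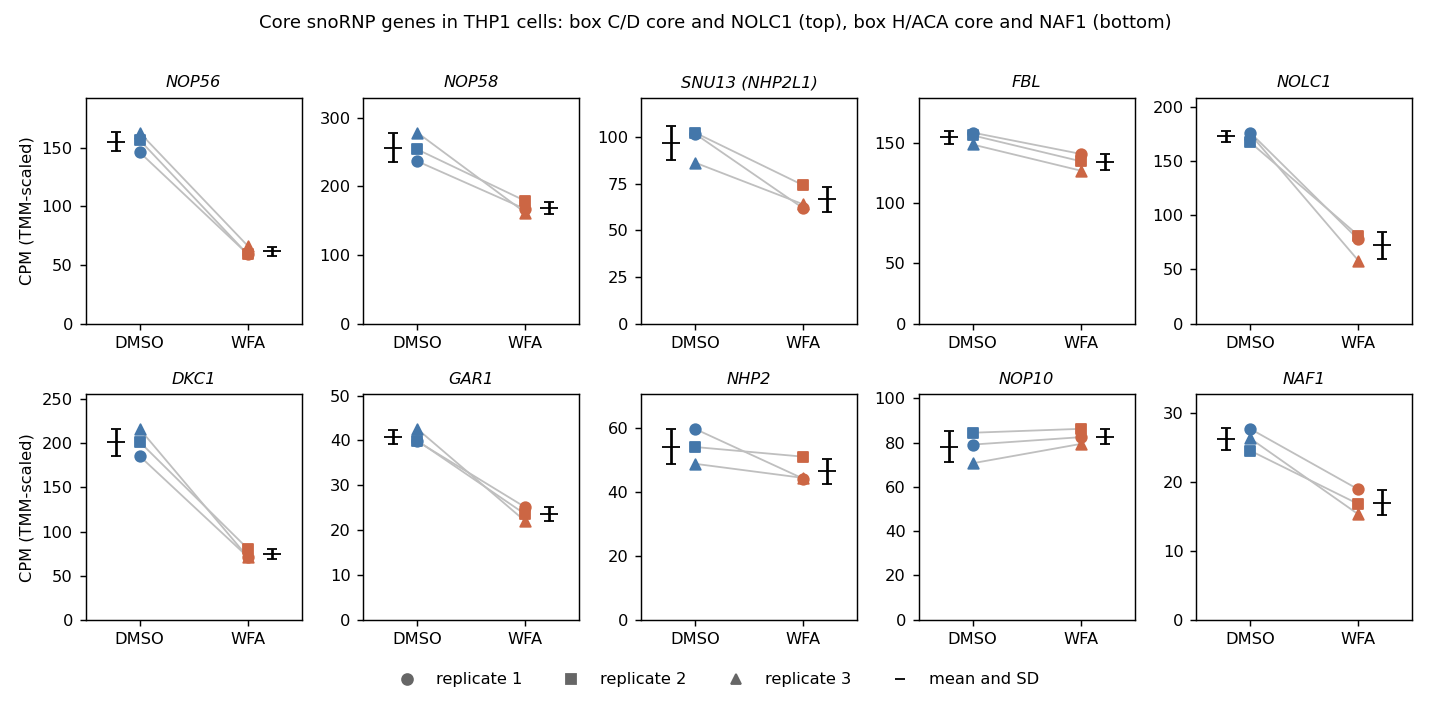
Level of each snoRNP gene in every library, as CPM scaled with edgeR's TMM factors, on axes that start at 0. Circles, squares and triangles are replicates 1, 2 and 3, grey lines join same-numbered libraries, and black bars are the mean and SD of 3 libraries. NOP56, DKC1 and NOLC1 fall furthest, FBL and NHP2 little, and NOP10 lies at 70.7 to 86.2 CPM in all 6 libraries.

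Promoters of 6 of the 10 genes were in the RefSeq set used here (GRCh38.p14), which spans 250 bases before to 50 bases after each start. NOP58, SNU13, NOLC1 and NAF1 were missing from it. These are starts as RefSeq places them, and GENCODE 29 begins the same genes earlier in part. All 250 bases before the start of NOP56 lie in its annotated exon, as do 122 for DKC1 and 82 for NHP2. For NOP10 and FBL the numbers are 41 and 35, and for the 2 promoters of GAR1 they are 0 and 243. The bases outside annotated exons are shown for NOP10, which did not pass the test, and DKC1, whose transcript fell most among those of the core proteins. Capitals mark the E-box CACGTG, a palindrome bound by MYC and related basic helix-loop-helix factors. The stretches are chr15:34343178-34343386 on the minus strand for NOP10 and chrX:154762614-154762741 on the plus strand for DKC1.
NOP10: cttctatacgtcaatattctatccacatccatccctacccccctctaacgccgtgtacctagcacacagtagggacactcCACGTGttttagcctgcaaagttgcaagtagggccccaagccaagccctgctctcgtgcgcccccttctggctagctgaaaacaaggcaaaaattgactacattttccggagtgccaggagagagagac
DKC1: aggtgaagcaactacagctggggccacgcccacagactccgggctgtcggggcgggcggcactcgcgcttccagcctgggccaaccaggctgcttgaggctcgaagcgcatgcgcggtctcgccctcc
Counted from the RefSeq start, the NOP10 promoter held the E-box at -170, shown above, and at -11, among the bases in its annotated exon. The promoter of FBL held it at 7, inside the transcript. The windows around these sites are chr15:34343127-34343156, from -20 to 10, and chr19:39846362-39846391, from -12 to 18, both on the minus strand.
NOP10: attgacgaaCACGTGacgcggtcgggcgga
FBL: cgcgcctgcgctcttttcCACGTGcgaaag
It was found too in 1 of the 2 promoters of GAR1, at 32, after the start. In all, 3 of the 6 genes held it, as did 7.26% of 35116 promoters and 8.77% of 27305 genes, and the windows of NOP56, DKC1 and NHP2 did not. The core of ETS family sites, CCGGAA on either strand, was found in 4 of the 6 genes, at -66 and -41 in NOP10, -176 in NOP56, -193 in FBL and -27 in GAR1, as in 17.2% of all promoters and 20.1% of genes. The heat shock element GAANNTTC, an inverted repeat that reads the same on both strands, was found in none of the 6, and in 6.77% of all promoters and 8.21% of genes. No motif overlapped another in these promoters. A match describes the letters of the window alone.

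Among transcripts of the box C/D core proteins, NOP56 fell most, NOP58 and SNU13 fell less, and FBL lay close to the threshold. NOP56 pairs with NOP58 in the particle, where each contacts 1 copy of the methyltransferase. NOP56 (chr20:2652145-2658393, plus strand, GRCh38 with GENCODE 29) had 146, 157 and 163 CPM in DMSO replicates 1, 2 and 3 and 59.1, 59.0 and 66.3 CPM in the WFA replicates. Each WFA library was far below each DMSO library. The log2 fold change was -1.34 (SE 0.09, 95% interval -1.52 to -1.15, edgeR adjusted p = 1.61e-08), a 2.53-fold fall that was exceeded by 2.44% of the genes tested.

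NOP58 (chr2:202265716-202303666, plus strand) was the most counted of the 10. It had 236, 254 and 278 CPM with DMSO and 167, 179 and 161 CPM with WFA, and the groups did not overlap. It fell 1.52-fold, with a log2 fold change of -0.60 (SE 0.09, 95% interval -0.79 to -0.41, edgeR adjusted p = 5.63e-05). The intervals of NOP58 and NOP56 lie apart. In counts within each library, NOP58 exceeded NOP56 by 1.62, 1.62 and 1.71 times with DMSO and by 2.82, 3.03 and 2.44 times with WFA, a ratio that does not depend on how libraries are scaled.

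SNU13 (chr22:41673930-41690504, minus strand) binds the kink-turn of box C/D snoRNAs and also that of U4 small nuclear RNA in the spliceosome. Its levels were 102, 103 and 86.4 CPM with DMSO and 61.9, 74.3 and 64.0 CPM with WFA. The highest WFA library stayed below the lowest DMSO library, and the log2 fold change was -0.54 (SE 0.10, 95% interval -0.75 to -0.33, edgeR adjusted p = 3.71e-04). SNU13 shares 43 exon bases with C22orf46 on the opposite strand, and the library kit named in the labels does not mark strand. C22orf46 had a fitted log2 change of 0.02 (edgeR adjusted p = 0.854).

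FBL (chr19:39834458-39846414, minus strand) encodes fibrillarin, the methyltransferase. It had 159, 156 and 149 CPM with DMSO and 141, 135 and 127 CPM with WFA. Each WFA library was below each DMSO library, by a small margin. The log2 fold change was -0.20 (SE 0.08, 95% interval -0.38 to -0.03), with an edgeR adjusted p of 0.0525, and 32.7% of the genes tested had a lower fold change. With the replicate block the value was -0.20 and the edgeR adjusted p 0.0220. FBL also passed with RLE factors, with total counts, with DESeq2 and without WFA replicate 1, where the edgeR adjusted p was 0.0427. The gene FBLL1, a close relative of FBL, had 4 to 9 counts per library.

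**Figure D2:**
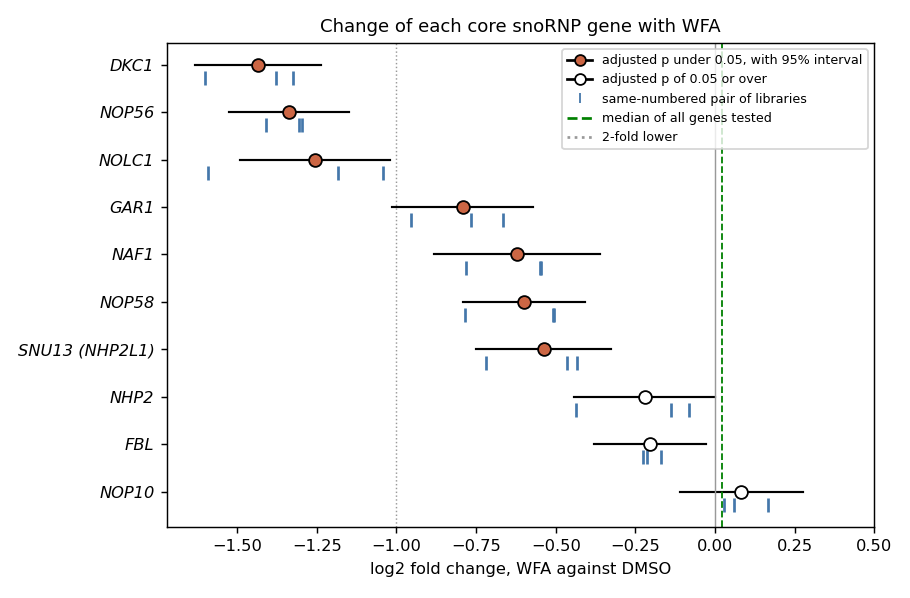
Log2 fold change of each snoRNP gene, WFA against DMSO, from edgeR's quasi-likelihood test. Circles are fitted values with 95% intervals, filled where the adjusted p is under 0.05, short blue bars are the 3 same-numbered pairs of libraries, the dotted line marks a 2-fold fall and the dashed line the median of all genes tested. DKC1, NOP56 and NOLC1 lie beyond the dotted line, and the intervals of NHP2 and NOP10 cross 0.

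Among transcripts of the box H/ACA core proteins, DKC1 and GAR1 fell, and NHP2 and NOP10 did not pass the test. DKC1 (chrX:154762742-154777689, plus strand) encodes dyskerin, the pseudouridine synthase, which is mutated in X-linked dyskeratosis congenita. Its levels were 186, 202 and 217 CPM with DMSO and 71.4, 80.6 and 71.3 CPM with WFA. No WFA library came near a DMSO library, and the log2 fold change of -1.43 (SE 0.09, 95% interval -1.63 to -1.24, edgeR adjusted p = 1.23e-08) was the lowest of the 10. A lower one was found for 1.98% of the genes tested.

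GAR1 (chr4:109815510-109824740, plus strand) joins the particle last, in place of NAF1, and makes it active. It had 39.8, 40.0 and 42.6 CPM with DMSO and 25.08, 23.52 and 21.96 CPM with WFA. The groups were well apart, with a 1.73-fold fall and a log2 fold change of -0.79 (SE 0.10, 95% interval -1.01 to -0.57, edgeR adjusted p = 1.59e-05).

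NHP2 (chr5:178149460-178153967, minus strand) encodes an RNA-binding protein related to SNU13. Its levels were 59.9, 54.2 and 48.9 CPM with DMSO and 44.3, 51.1 and 44.5 CPM with WFA. The groups overlapped, since WFA replicate 2 lay above DMSO replicate 3. The log2 fold change was -0.22 (SE 0.10, 95% interval -0.44 to 0.00, edgeR adjusted p = 0.0902), and the exact permutation test gave p = 0.2. All 3 same-numbered pairs were lower with WFA, and the block gave a log2 fold change of -0.22 with an edgeR adjusted p of 0.0331. It passed as well with total counts, without DMSO replicate 3 (edgeR adjusted p = 0.0461) and without WFA replicate 2 (edgeR adjusted p = 0.0446). NHP2 shares 414 exon bases with RMND5B on the opposite strand, which had a fitted log2 change of 0.16 (edgeR adjusted p = 0.300), so reads on these bases cannot be told apart.

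NOP10 (chr15:34341713-34343177, minus strand) encodes the smallest subunit, a peptide that braces the catalytic domain of dyskerin. It had 79.1, 84.4 and 70.7 CPM with DMSO and 82.4, 86.2 and 79.4 CPM with WFA, and the groups overlapped. Its log2 fold change was 0.08 (SE 0.09, 95% interval -0.11 to 0.28, edgeR adjusted p = 0.469), and the exact permutation test gave p = 0.4. The lower bound of the interval does not reach the fall of GAR1 or DKC1. With total counts as the scale the value was 0.00, so no direction can be given.

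Ratios between the transcripts of the box H/ACA subunits therefore shifted. The data are RNA counts, and levels of these proteins were not measured. In counts, DKC1 exceeded NOP10 by 2.35, 2.39 and 3.06 times in the DMSO libraries and was below it, at 0.866, 0.936 and 0.898 times, in the WFA libraries. The ratio of GAR1 to NOP10 went from 0.526 ± 0.0676 to 0.285 ± 0.0171 (SD, n = 3 each). The ratio of NHP2 to NOP10 moved least of these, from 0.697 ± 0.0579 to 0.564 ± 0.0283 (SD, n = 3 each). Within the box C/D group, NOP56 to FBL went from 1.01 ± 0.0871 to 0.460 ± 0.0545, and SNU13 to FBL from 0.627 ± 0.0398 to 0.498 ± 0.0561 (SD, n = 3 each). Groups did not overlap in these ratios, which are given without a test. The denominators NOP10 and FBL did not pass the test, so these ratios largely repeat the changes given above for each gene. How often such ratios overlap for other pairs of genes was not examined.

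**Figure D3:**
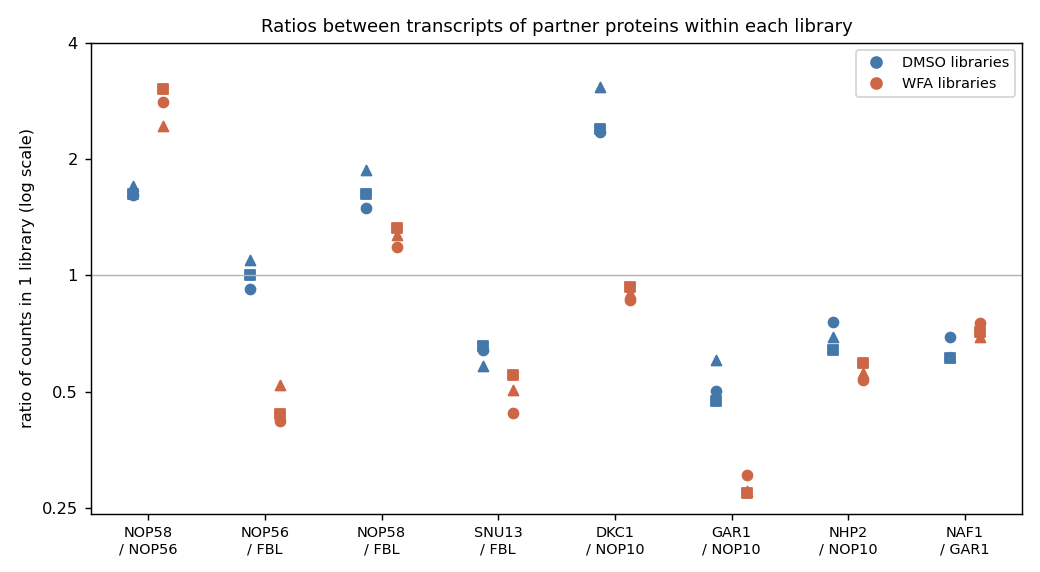
Ratio of the counts of partner genes within each library, on a log axis. Blue points are DMSO libraries and orange points WFA libraries, with circles, squares and triangles for replicates 1, 2 and 3, and the grey line marks equal counts. DKC1 changes from above NOP10 to below it, and NOP58 rises relative to NOP56.

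Transcripts of both assembly factors fell. NOLC1 (chr10:102152176-102163871, plus strand) encodes Nopp140, a heavily phosphorylated chaperone that binds both classes of snoRNP and accompanies them between the nucleolus and Cajal bodies. It had 176, 167 and 175 CPM with DMSO and 77.6, 81.3 and 58.1 CPM with WFA. WFA replicate 3 was the lowest, and the groups were far apart. The log2 fold change was -1.26 (SE 0.11, 95% interval -1.49 to -1.02, edgeR adjusted p = 3.27e-07), and the 3 pairs gave -1.18, -1.04 and -1.59.

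NAF1 (chr4:163110073-163166921, minus strand) holds dyskerin in the immature box H/ACA particle until GAR1 replaces it. It was the least counted of the 10, with 27.6, 24.5 and 26.3 CPM with DMSO and 18.9, 16.8 and 15.3 CPM with WFA. The groups did not overlap, and the log2 fold change was -0.62 (SE 0.12, 95% interval -0.88 to -0.36, edgeR adjusted p = 5.96e-04). NAF1 and GAR1, which occupy the same place in turn, had overlapping intervals. The ratio of NAF1 to GAR1 in counts was 0.641 ± 0.0461 with DMSO and 0.720 ± 0.0295 with WFA (SD, n = 3 each). The groups did not overlap in this ratio, by a very small margin, with 0.6943 in DMSO replicate 1 and 0.6949 in WFA replicate 3. It was not tested.

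To compare levels between genes, CPM was divided by the length of the principal transcript. In the DMSO libraries the order per kilobase was NOP10 at 141 ± 12.5, FBL at 133 ± 4.48 and NOP58 at 125 ± 10.3 CPM per kb, 3 genes whose libraries overlapped. DKC1 followed at 78.1 ± 5.97 CPM per kb, clear of its neighbours. NOP56 at 64.6 ± 3.52, SNU13 at 64.5 ± 6.07 and NHP2 at 62.8 ± 6.33 CPM per kb overlapped again. NOLC1 at 44.0 ± 1.22, GAR1 at 33.3 ± 1.27 and NAF1 at 13.7 ± 0.832 CPM per kb were each apart (SD, n = 3 throughout).

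In the WFA libraries NOP10 at 149 ± 6.15 and FBL at 116 ± 6.00 CPM per kb no longer overlapped. NOP58 stood at 82.5 ± 4.27, NHP2 at 53.9 ± 4.52 and SNU13 at 44.4 ± 4.39 CPM per kb. DKC1, at 28.9 ± 2.08 CPM per kb, had dropped below NHP2 and SNU13, and NOP56 stood next to it at 25.6 ± 1.73 CPM per kb. GAR1 at 19.2 ± 1.27 and NOLC1 at 18.4 ± 3.17 CPM per kb overlapped, and NAF1 was again the lowest at 8.89 ± 0.951 CPM per kb (SD, n = 3 throughout). The order rests on the transcript chosen: over all annotated exons NOP56 had 5398 bases in place of 2400, and its DMSO level was 28.7 CPM per kb.

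Other genes that act with these proteins were read from lists written from general knowledge. The R2TP complex and its partners fold and assemble the core proteins. Of 10 genes listed for R2TP and snoRNP assembly 9 were tested, with 7 lower, 1 higher and a median log2 fold change of -0.70. TCOF1, a relative of NOLC1 and not a part of R2TP, is among the 10. NUFIP1, a platform for box C/D assembly, had a fitted log2 change of -1.40 (edgeR adjusted p = 5.90e-07). RUVBL1, an ATPase of R2TP, had -0.95 (edgeR adjusted p = 2.87e-07), TCOF1, whose product treacle is a nucleolar relative of Nopp140, had -0.73 (edgeR adjusted p = 1.02e-05), and ZNHIT6, a box C/D assembly factor, had -0.70 (edgeR adjusted p = 1.55e-05). RUVBL2, which forms a mixed ring with RUVBL1, went the other way. It had 115 ± 9.91 CPM with DMSO and 167 ± 4.76 CPM with WFA (SD, n = 3 each), higher by 0.54 on the log2 scale (edgeR adjusted p = 1.29e-04).

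Transcripts of the 4 proteins particular to the U3 particle were all lower, with a median log2 fold change of -1.13. RRP9, which recognises U3 RNA, had -1.38 (edgeR adjusted p = 3.63e-07), IMP3 -1.21 (edgeR adjusted p = 1.77e-06), IMP4 -1.05 (edgeR adjusted p = 7.36e-06) and MPHOSPH10, which binds IMP3 and IMP4, -0.53 (edgeR adjusted p = 1.33e-04).

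Of 12 genes of telomerase and the Cajal body, where box H/ACA proteins also serve, 7 were tested, with 4 lower, 0 higher and a median log2 fold change of -0.43. DESeq2 also called 0 of them higher, and 0 were higher at an unadjusted p under 0.05 in edgeR. GEMIN5 and GEMIN4, of the SMN complex that assembles spliceosomal particles, had log2 fold changes of -1.39 (edgeR adjusted p = 1.32e-07) and -1.37 (edgeR adjusted p = 3.80e-07). GEMIN2 of the same complex had -0.63 (edgeR adjusted p = 4.22e-04), and TGS1, which hypermethylates RNA caps, had -0.43 (edgeR adjusted p = 6.56e-04). These were the 4 lower genes, so the count rests on the SMN complex and TGS1. WRAP53, COIL and ZCCHC8 did not pass, with log2 fold changes of -0.14, -0.18 and 0.13 (edgeR adjusted p = 0.542, 0.104 and 0.287). TERT and TERC, the protein and RNA of telomerase, did not pass the filter on low counts. TERT had 4, 11 and 13 counts with DMSO and 0, 0 and 3 with WFA. PARN, SMN1 and SMN2, like ZNHIT3 of the assembly list, were listed at 0 in every library, and since cells in general use them this cannot be read as absence.

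Enzymes other than the core snoRNP proteins also modify RNA. Which RNAs the pseudouridine synthases listed here act on was not examined. Of 12 stand-alone pseudouridine synthases, 7 were lower and 2 higher, with a median log2 fold change of -0.45. PUS7 fell most, by 1.85 on the log2 scale (edgeR adjusted p = 7.53e-09), followed by PUS1 with -1.38 (edgeR adjusted p = 1.67e-06) and RPUSD2 with -1.10 (edgeR adjusted p = 2.94e-05). PUS7L rose by 0.57 (edgeR adjusted p = 2.13e-04) and PUS3 by 0.28 (edgeR adjusted p = 0.0237) on the log2 scale, and 1 of the 2 rises was lost under several settings. Of 11 genes listed for other methyl- and acetyltransferases of ribosomal RNA and their partners, 7 were lower and 1 higher, with a median log2 fold change of -0.67. NOP2 had -1.59 (edgeR adjusted p = 1.31e-07), DIMT1 -1.11 (edgeR adjusted p = 1.24e-06), NAT10 -0.94 (edgeR adjusted p = 1.26e-06) and EMG1 -0.79 (edgeR adjusted p = 4.67e-05), whereas TRMT112, an activating partner of several methyltransferases, rose by 0.44 (edgeR adjusted p = 2.59e-03).

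SNU13 also belongs to the U4/U6.U5 tri-snRNP of the spliceosome. Of the genes of 15 proteins of that particle 13 were tested, with 6 lower, 1 higher and a median log2 fold change of -0.20. With total counts as the scale 11 were lower, and so were 30.15% of all genes tested. PRPF4 had a fitted log2 change of -0.72 (edgeR adjusted p = 5.09e-06), EFTUD2 -0.43 (edgeR adjusted p = 4.87e-04), SNRNP40 -0.42 (edgeR adjusted p = 8.92e-04), and CD2BP2 was higher by 0.90 (edgeR adjusted p = 1.07e-05). The fall of SNU13, -0.54 on the log2 scale, was larger than that of each tri-snRNP gene tested other than PRPF4. This was not tested as a difference. PRPF8 was listed at 0 in every library, which for this core splicing factor cannot be read as absence.

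**Figure D4:**
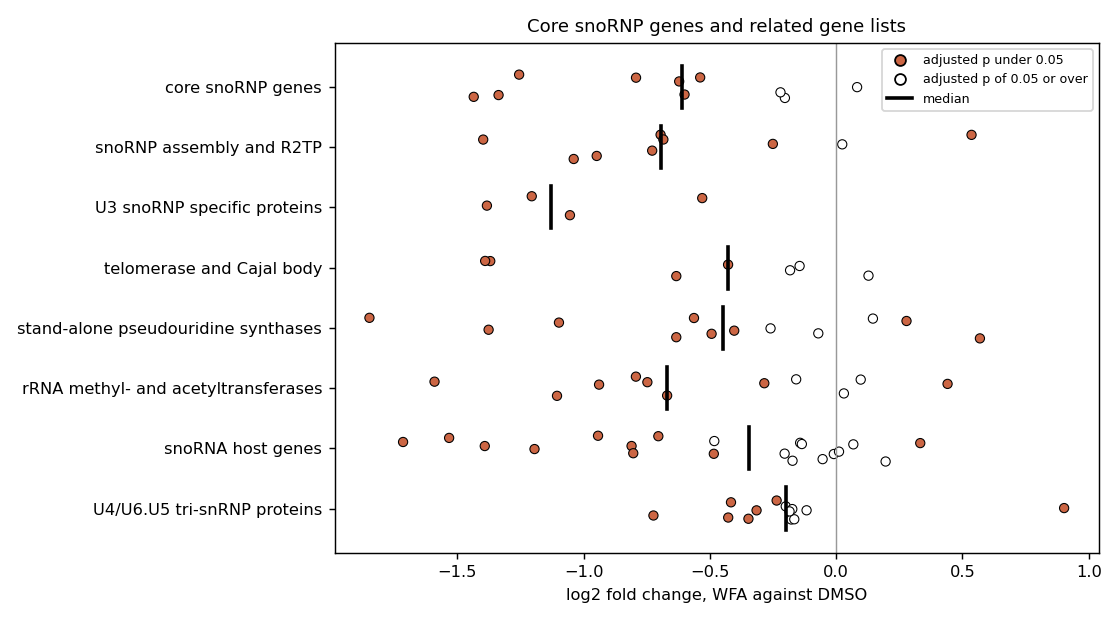
Log2 fold change, WFA against DMSO, of every tested gene of the snoRNP group and of 7 related lists. Circles are genes, filled where edgeR's adjusted p is under 0.05, with vertical jitter for legibility, and black bars are list medians. The snoRNP genes have a median of -0.61, the U3 proteins one of -1.13 and the tri-snRNP proteins one of -0.20.

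The snoRNP proteins bind snoRNAs, and the count table has 411 snoRNA and small Cajal body RNA rows. The libraries were made with a poly(A)-selecting kit, and these rows held 8045 counts in all, 0.0108% of the total, with no count in 159 of them. Reads of a mature snoRNA and of unspliced host RNA across it cannot be told apart in such counts. Box C/D rows (SNORD) summed to 74.2, 81.7 and 100.3 CPM with DMSO and 41.95, 43.05 and 42.57 CPM with WFA, a 2.01-fold fall without overlap. Box H/ACA rows (SNORA) summed to 32.3, 45.5 and 50.5 CPM with DMSO and 24.97, 24.22 and 24.91 CPM with WFA, 1.73-fold lower. Rows of small Cajal body RNAs (SCARNA) overlapped between the groups, at 9.99 ± 0.787 and 9.42 ± 1.51 CPM (SD, n = 3 each).

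Of the 40 rows with enough counts to be tested, 24 were lower and 3 higher, SNORD14C, SNORD14D and SNORD89. Among all genes tested, 24.7% were lower and 25.8% higher. With DESeq2, without DMSO replicate 2 or without WFA replicate 3, 1 was higher. With no filter on low counts more rows were tested and 50 were lower, beside 18.5% of all genes tested. A row that passes the filter through the DMSO libraries alone is bound to differ, so these counts describe the rows and support no statement on their own. A host gene was found for 38 of the 40, and 29 of them lay in an exon of some transcript of that host. Of 23 lower rows with a host, the host was lower for 7, did not pass the test for 16 and was higher for 0. Rows of 1 host are not separate cases: 7 of the 23 lay in GAS5, which did not pass the test, and 4 in SNHG1, which was lower.

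Summed over all rows inside a host, whether tested or not, some hosts are given as a description, since they were chosen after their values were seen. The 10 rows inside GAS5, a noncoding host gene, summed to 269, 251 and 262 counts with DMSO and 70, 81 and 58 counts with WFA. GAS5 itself had 196 ± 37.0 CPM with DMSO and 177 ± 22.4 CPM with WFA (SD, n = 3 each), and its log2 fold change was -0.14 (edgeR adjusted p = 0.360). The 8 rows inside SNHG1 summed to 12.8 ± 2.61 CPM with DMSO and 4.42 ± 0.562 CPM with WFA, and the 55 rows inside ribosomal protein genes to 33.3 ± 7.31 and 13.6 ± 1.42 CPM (SD, n = 3 each). The 3 rows inside HSPA8, which encodes the chaperone HSC70, summed to 55, 34 and 39 counts with DMSO and 84, 70 and 77 counts with WFA, and HSPA8 rose by 1.56 on the log2 scale (edgeR adjusted p = 1.44e-07).

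Members host snoRNAs too: NOP56 holds SNORD110, SNORA51, SNORD86, SNORD56 and SNORD57, NOP58 holds SNORD70, SNORD11B and SNORD11, and DKC1 holds SNORA36A and SNORA56. None of the 10 rows could be tested, as each had between 0 and 43 counts over the 6 libraries. Their sum was 23, 33 and 36 counts with DMSO and 12, 12 and 7 counts with WFA. The snoRNAs of NOP56 and DKC1 overlap exons of some of their host's transcripts.

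Other genes that host snoRNAs were mixed. Of 20 noncoding host genes, 9 were lower and 1 higher, with a median log2 fold change of -0.34, which was -0.13 without DMSO replicate 2. SNHG16 had -1.39 (edgeR adjusted p = 3.70e-08), SNHG3 -1.71 (edgeR adjusted p = 4.72e-07), SNHG15 -1.53 (edgeR adjusted p = 1.14e-06) and SNHG17 -1.19 (edgeR adjusted p = 2.74e-05). SNHG7 was higher by 0.33 (edgeR adjusted p = 0.0226), a call lost with total counts and without DMSO replicate 1, DMSO replicate 2 or WFA replicate 3.

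**Figure D5:**
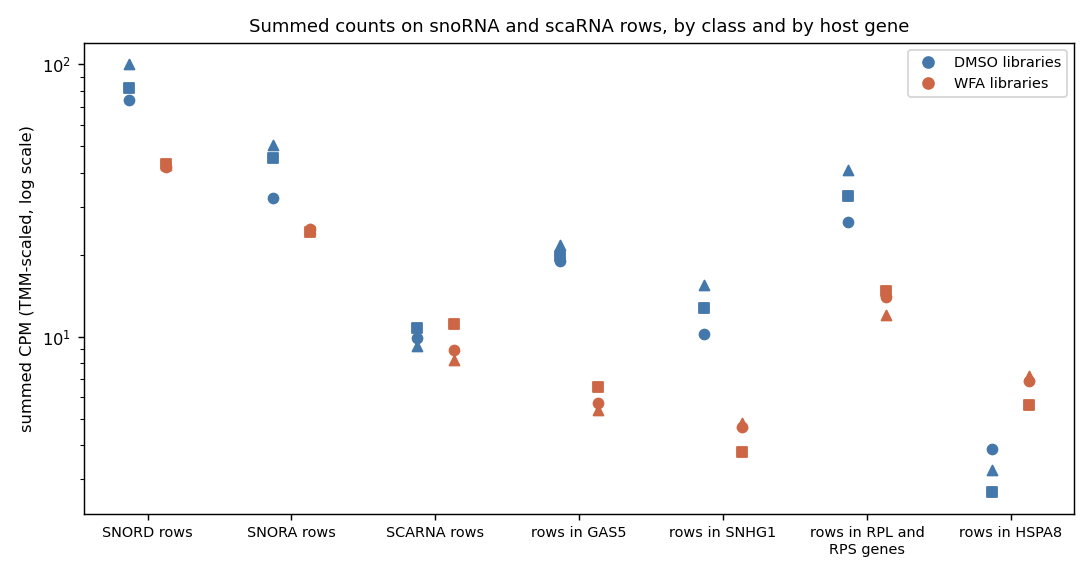
Summed level of snoRNA and small Cajal body RNA rows per library, in CPM scaled with TMM factors on a log axis, by class and for all rows inside named host genes. Blue points are DMSO libraries and orange points WFA libraries, with circles, squares and triangles for replicates 1, 2 and 3. Box C/D and box H/ACA rows are lower with WFA, SCARNA rows overlap, and the rows inside HSPA8 are higher.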

How the data were processed

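Counts of reads per gene for 6 libraries were deposited by the authors as whole numbers without normalization. Per the submitters' processing notes, bcl2fastq 2.19, Trimmomatic, Bowtie2, Picard, featureCounts and DESeq2 were used with hg38; settings for strand and for multiply mapped reads are not given in the sources used here. The table also holds 6 scaled columns and 13 columns of the authors' comparison (means, fold changes, p-values), which were not used.

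Counts were fitted with edgeR 4.0.16 in R 4.3.3 (TMM factors, filterByExpr with a minimum count of 10, quasi-likelihood test, group as the only term), and Benjamini-Hochberg adjustment over 12854 genes, with calls at an adjusted p under 0.05. Levels are CPM on the TMM-scaled library sizes. Alternatives were a replicate block, DESeq2 1.42.0, RLE and upper-quartile factors, total counts, no filter, a robust fit and leaving out each library.

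All 10 genes are named, and from each list the 4 with the smallest p-value and up to 2 passing against its median. The genes and lists were chosen with earlier results of these data known. In 3 of 3 same-numbered pairs, which share a code in the labels, deviations from group means (log2 of CPM plus 0.5) correlated across genes. Their r was 0.23, 0.36 and 0.26, against -0.28 to 0.01 for other pairs. Deviations within a group sum to 0 for each gene, so the values of other pairs are not independent of these. Libraries of a group differed beyond sampling noise (chi-square per gene 5.92 to 10.9). Total counts were 11006035 to 13872810 per library, and precision rests on the spread among 3 libraries, with counting error adding to it for low counts. Positions are from GENCODE 29 and, for promoters and snoRNAs it did not place, RefSeq.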

Additional observations from a re-analysis of the deposited data

How the results depend on the processing

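The 3 counts of snoRNP genes called and their median kept their direction under all 13 alternatives: 7 to 9 lower, 0 higher, 3 over 2-fold lower. The share of all genes tested that was called lower also varied, from 18.5% with no filter to 30.15% with total counts. With the replicate block 9 snoRNP genes were lower, beside 28.8% of all genes tested, and the median log2 fold change of the 10 was -0.61. That fit has 2 residual degrees of freedom in place of 4 and an infinite prior, against 10.8 without the block, so its p-values are smaller. It changed no call among the 10 other than those of FBL and NHP2. With total counts as the scale the median was -0.70, and the median of all genes tested moved from 0.02 to -0.06. With each library left out the snoRNP median lay between -0.65 and -0.56, and 7 or 8 were lower, beside 21.6% to 23.1% of all genes tested.

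Related lists moved more. Pseudouridine synthases called higher went from 2 to 1 with total counts, with no filter and with DESeq2, and to between 1 and 2 with a library left out. With total counts the tri-snRNP list had 11 lower genes and a median of -0.28, and the snoRNA host genes had 0 higher. With a library left out, the tri-snRNP median was -0.24 to -0.20, the host genes called higher were 0 to 1 and their median was -0.43 to -0.13. The telomerase median was -0.51 with total counts, -0.55 with DESeq2 and -0.57 to -0.41 with a library left out. Of snoRNA and small Cajal body RNA rows, 50 were lower with no filter, where more rows were tested, and 1 was higher with DESeq2, without DMSO replicate 2 and without WFA replicate 3. Where not stated, the cause was not tested. Depth limits what can be read from the snoRNA rows.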
